A study of Mus musculus with 11 samples.

Results

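Acetylation of lysine 27 of histone H3 (H3K27ac) and trimethylation of lysine 4 (H3K4me3) were compared in glands of the wild-type mouse stomach, using 2 H3K27ac libraries and 1 H3K4me3 library. Overlapping peaks of the H3K27ac lists were merged into 24769 regions, and regions with a peak in both lists were kept (13150). A region with at least 1 bp of an H3K4me3 peak was placed in the class "both marks" (9611 regions), and one without it in "H3K27ac only" (3539). An H3K4me3 peak that overlapped neither H3K27ac list was placed in "H3K4me3 only" (4527 of 17558 peaks). The 3 classes held 17677 regions. All wild-type peaks of both marks merged to 28808 regions, and the peaks of all 11 libraries of the series to 58978.

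The mice of these 3 libraries are labelled wild type, with no transgene named. All other libraries came from mice with Atp4bCre, in which a parietal cell promoter drives Cre, and Rosa26NICD, an allele of the active intracellular part of Notch (together called NICD below), either alone or with Arid1aflox/+ (1 floxed allele) or Arid1aflox/flox (2 floxed alleles). Each of these genotypes had 2 H3K27ac libraries, and H3K4me3 was profiled in 1 NICD library and 1 Arid1a-floxed NICD library, whose title and genotype labels disagree on the number of floxed alleles. Ages were not in the labels. Fixed epithelial pellets were pooled before immunoprecipitation, so the libraries of a genotype may share animals, and any p-value measures only the spread between libraries. The protocol text, shared by all libraries, lists 1 antibody, to H3K27ac. The labels call 3 libraries H3K4me3 without naming their antibody.

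H3K27ac is laid down by the p300 and CBP acetyltransferases and marks active promoters as well as active enhancers, whereas H3K4me3 is laid down by the SET1 and MLL complexes around the start sites of genes, above all those in CpG islands. Regions with H3K27ac and little H3K4me3 away from gene starts are therefore usually read as candidate enhancers, and promoters with H3K4me3 alone as open but weakly acetylated. The stomach gland holds acid-secreting parietal cells, pepsinogen-secreting chief cells, mucous neck cells, endocrine cells and dividing isthmus cells below a surface of pit cells, and a peak list of bulk glands mixes them: fewer cells of a type and less signal per cell cannot be told apart.

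The promoters of 6 chosen genes, 2 per class, are printed as examples and do not stand for the whole of their class. Each line gives the 200 bases just before the annotated start of transcription (RefSeq, GRCm38.p6), upstream of the first exon and read along the gene, with CG dinucleotides in capitals. Eif1 encodes a translation initiation factor and Krt8 a keratin of simple epithelia, and both carried both marks.
Eif1, chr11:100319749-100319948, + strand: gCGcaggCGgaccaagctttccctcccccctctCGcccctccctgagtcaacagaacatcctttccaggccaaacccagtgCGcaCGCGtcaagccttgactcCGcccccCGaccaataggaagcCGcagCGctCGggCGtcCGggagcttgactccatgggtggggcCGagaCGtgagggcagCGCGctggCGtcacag
Krt8, chr15:102004343-102004542, - strand: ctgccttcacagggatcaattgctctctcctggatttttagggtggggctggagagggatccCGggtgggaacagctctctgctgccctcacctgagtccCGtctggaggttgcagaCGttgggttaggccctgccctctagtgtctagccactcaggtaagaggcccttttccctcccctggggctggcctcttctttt
Agr2, which encodes a disulfide isomerase of mucus-secreting cells, and Gkn2, which encodes a secreted gastrokine of pit cells, carried H3K27ac only.
Agr2, chr12:35992725-35992924, + strand: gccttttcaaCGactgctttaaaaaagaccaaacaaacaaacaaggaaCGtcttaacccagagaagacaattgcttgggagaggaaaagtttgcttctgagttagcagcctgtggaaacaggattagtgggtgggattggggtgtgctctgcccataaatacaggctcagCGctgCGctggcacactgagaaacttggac
Gkn2, chr6:87373165-87373364, + strand: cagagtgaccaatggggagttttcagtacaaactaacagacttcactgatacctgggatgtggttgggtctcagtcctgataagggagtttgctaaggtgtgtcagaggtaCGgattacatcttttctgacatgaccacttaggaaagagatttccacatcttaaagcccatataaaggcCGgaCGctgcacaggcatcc
Heatr1, which acts in ribosome assembly, and Gle1, an mRNA export factor, carried H3K4me3 only.
Heatr1, chr13:12395175-12395374, + strand: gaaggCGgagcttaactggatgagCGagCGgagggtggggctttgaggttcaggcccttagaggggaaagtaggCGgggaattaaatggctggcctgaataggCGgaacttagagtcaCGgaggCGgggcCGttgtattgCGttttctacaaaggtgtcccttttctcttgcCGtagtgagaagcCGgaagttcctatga
Gle1, chr2:29935209-29935408, + strand: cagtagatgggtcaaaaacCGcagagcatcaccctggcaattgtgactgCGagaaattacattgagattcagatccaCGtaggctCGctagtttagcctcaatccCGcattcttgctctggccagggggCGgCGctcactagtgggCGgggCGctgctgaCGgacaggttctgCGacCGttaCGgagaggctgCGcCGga
The stretch of Eif1 held 18 CG dinucleotides, that of Gle1 15 and that of Heatr1 11. Agr2 held 4, and Gkn2 and Krt8 held 3 each, so Krt8 carried both marks on a promoter as poor in CG as those of the H3K27ac-only genes.

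The 3 peak lists were of similar length and depth. The H3K27ac lists held 20590 and 18360 peaks from 18.3 M and 17.0 M tags after duplicate removal, and the H3K4me3 list 17558 peaks from 20.8 M tags. Of the peaks in H3K27ac library 1, 67.0% overlapped a peak of library 2, and 73.7% the other way round. Of all H3K4me3 peaks, 57.1% overlapped peaks of both H3K27ac lists and 17.1% a peak of 1 list alone. Peaks of the latter kind were not placed in H3K4me3 only, although some may touch a region kept in both lists. H3K27ac regions in 1 list were left out of the classes (3041 regions with H3K4me3 and 8578 without).

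Acetylated regions mostly carried H3K4me3 as well: 73.1% of the 13150 regions in both H3K27ac lists did so and 26.9% did not. From the other side, 25.8% of the H3K4me3 peaks had no acetylated region in either list. The both-marks regions were the widest, with a median of 426 bp against 306 bp for H3K27ac only and 198 bp for H3K4me3 only. The units differ, since regions of the first 2 classes join peaks of 2 lists and H3K4me3-only members are single peaks. Single peaks had median widths of 240 and 272 bp in the H3K27ac lists and 306 bp in the H3K4me3 list. Edge distances and overlap shares below were not matched for width. Where the marks overlapped they shared a median of 341 bp, and in 49 of the 9611 regions (0.510%) the overlap was under 50 bp. Just outside the rule, 35 H3K27ac-only regions had an H3K4me3 peak within 50 bp of their edge, and 183 H3K4me3-only peaks had a peak of either H3K27ac list that close. Within 1 kb these numbers were 1101 (31.1%) and 2208 (48.8%), so nearly every second H3K4me3-only peak lay beside acetylated chromatin rather than apart from it.

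The classes took different places relative to genes. Of the both-marks regions, 84.9% lay within 1 kb of the start of a protein-coding gene, with a median distance of 79 bp from the region's edge. Of the H3K4me3-only peaks 70.0% did so, with a median of 414 bp. Of the H3K27ac-only regions 32.4% did so, with a median of 9533 bp, and 49.4% lay more than 10 kb from any such start, against 9.76% of the both-marks regions and 18.4% of the H3K4me3-only peaks. H3K4me3-only peaks were also shifted outward among those near a start, with 15.7% of the class 0.5 to 1 kb away, against 3.50% of the both-marks regions. Since H3K4me3 is a mark of gene starts, the rule itself favours this order, and no test was made over regions, which are not replicates. The H3K27ac-only class was the least stable, with 2270 regions and 49.8% near a start when all lists were limited to peaks with a −log10 q of at least 5, and with 7387 regions from H3K27ac library 2 alone and 8694 from library 1 alone.

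**Figure D1:**
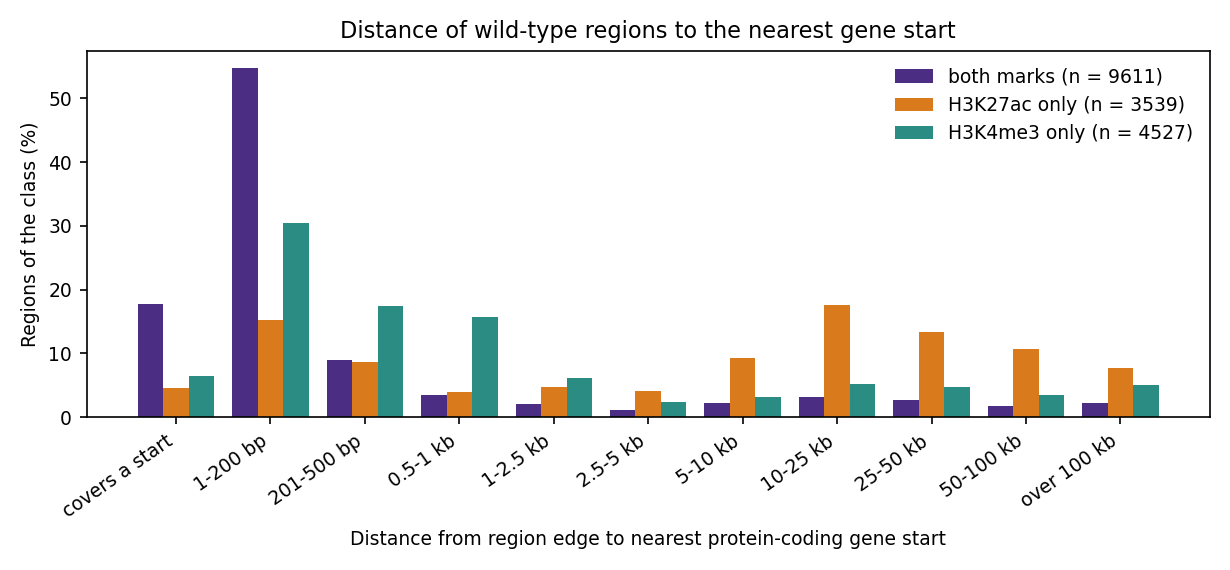
Percent of the regions of each class (vertical axis) by distance from the region's edge to the nearest protein-coding gene start (horizontal axis, bins of unequal width). Both-marks regions and H3K4me3-only peaks are most frequent 1 to 200 bp from a start (54.7% and 30.4%). H3K27ac-only regions are most frequent at 10 to 25 kb (17.6%), followed by 1 to 200 bp (15.2%). The other classes also have a smaller maximum at 10 to 25 kb (3.09% and 5.17%), a bin far wider than those near a start.

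More than 1 kb from every protein-coding start lay 1449 both-marks regions, 2391 H3K27ac-only regions and 1359 H3K4me3-only peaks. Starts of non-coding genes lay within 1 kb of 14.5% of these both-marks regions, of 6.86% of the H3K27ac-only regions and of 7.80% of the H3K4me3-only peaks. About equal shares lay inside a protein-coding gene (47.3%, 47.6% and 53.1%). Counting a peak of the other mark up to 1 kb away as present left 2162 distal H3K27ac-only regions and 951 distal H3K4me3-only peaks.

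The strength of a peak was read as its percentile within its own list by −log10 q, the authors' measure of significance, with 100 the strongest. Both-marks regions had a median percentile of 73.4 and 70.0 in the H3K27ac libraries and 67.3 in the H3K4me3 library. H3K27ac-only regions had medians of 43.9 and 41.7, and H3K4me3-only peaks 25.4. Within each list the authors' fold enrichment at the summit was also highest for both marks. The class medians were 6.09, 5.84 and 5.90 for both marks, 4.63 and 4.51 for H3K27ac only, and 4.57 for H3K4me3 only. The gap was present in distal chromatin too: distal both-marks regions had H3K27ac medians of 72.4 and 69.0, close to the 73.6 and 70.1 of those near a start, whereas distal H3K27ac-only regions had 40.04 and 39.0.

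**Figure D2:**
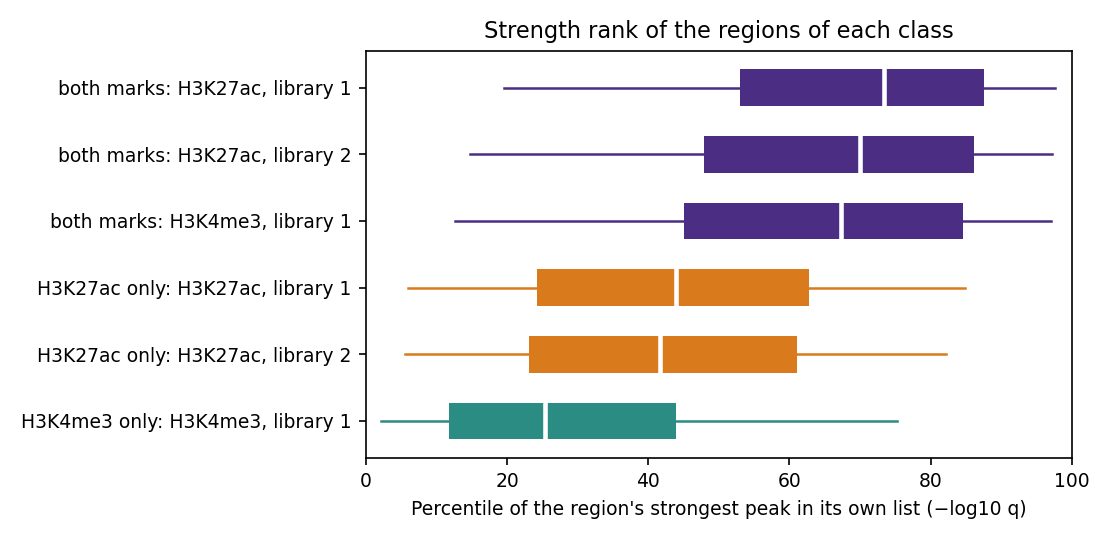
Percentile of each region's strongest peak within its own list (horizontal axis) by class and wild-type library; boxes span the quartiles, white lines the medians, thin lines the 5th to 95th percentiles over regions. Both-marks regions have medians of 67.3 to 73.4 and H3K4me3-only peaks 25.4, with wide overlap between classes.

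The share of peaks that carried the other mark rose from the weakest to the strongest decile of each list. It went from 23.9% to 95.05% in H3K27ac library 1, from 29.0% to 96.1% in library 2 and from 25.01% to 89.5% in the H3K4me3 library, and it rose at every step. For H3K4me3 peaks an overlap with both H3K27ac lists was required, a stricter measure than overlap with the single H3K4me3 list. Across the both-marks regions the 2 H3K27ac libraries ranked regions alike, with a Spearman's rho of 0.68 (n = 9611 regions), and the H3K27ac and H3K4me3 ranks followed each other less closely (rho 0.37 with either library). Across the H3K27ac-only regions the 2 H3K27ac libraries reached 0.39 (n = 3539). These correlations are descriptions over regions that share libraries, chromosomes and base composition.

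The few strongest both-marks regions were far from the starts of genes. In the strongest decile of each list, by contrast, most peaks lay within 1 kb of a start. Their share was 83.2% and 80.5% in H3K27ac libraries 1 and 2 and 80.3% in the H3K4me3 library. The region with the highest mean percentile, chr12:3109769-3110222, lay 199747 bp from the nearest start, that of Rab10, and had a fold of 34.0, 30.1 and 32.5 in the H3K27ac libraries 1 and 2 and the H3K4me3 library. All of the 5 strongest both-marks regions were distal, with folds between 13.2 and 34.5. Each of the 5 overlapped a peak in 4 of the 6 H3K27ac libraries of other genotypes. The lists of both libraries with 2 floxed alleles hold no scores. In all 9 lists with scores, of either label, 14 both-marks regions ranked in the strongest 1% (none within 1 kb of a start). The near-equal height of the strongest of them in the H3K27ac and H3K4me3 libraries is given here as a measurement, and their part in the class values was not tested beyond leaving them out, which left 85.0% of the class near a start. Peaks were called without a control and no regions of known high background were removed, so background signal at these regions was not tested. The strongest H3K27ac-only region, chr11:87471077-87471402 in Tex14, had folds of 19.6 and 19.1 and overlapped a peak in all 6 H3K27ac libraries of other genotypes. The next 2 lay 33435 and 14146 bp from Eapp on chromosome 12, with folds of 19.8 and 16.9 and of 12.3 and 12.8, and each of the 3 overlapped a peak in 1 of the 2 H3K4me3 libraries of other genotypes. The strongest H3K4me3-only peak lay in Efna5, which encodes an ephrin ligand, and the next 4 lay within 112 bp of the starts of Heatr1, Urb1, Mecr and Zc3h3.

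Each of 21887 protein-coding genes was then placed in a class by the peaks within 1 kb of its start. Both marks were present at 8407 genes (38.4%), both H3K27ac lists without H3K4me3 at 277 (1.27%), H3K4me3 with neither list at 1188 (5.43%), a peak in 1 H3K27ac list at 1761 (8.05%) and no peak at 10254 (46.8%). Taken library by library, 44.8% and 42.6% of genes had a peak in H3K27ac libraries 1 and 2 and 49.9% in the H3K4me3 library. Most acetylated promoters thus carried H3K4me3 as well, and H3K27ac alone was the rarest state. With library 2 or library 1 alone in place of both, H3K27ac-only genes numbered 462 and 532, and H3K4me3-only genes 2046 and 1651. Promoter peaks of both-marks genes had median percentiles of 75.7, 72.6 and 72.6 in the 3 lists, those of H3K27ac-only genes 47.1 and 48.4, and those of H3K4me3-only genes 33.4.

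Among both-marks genes the strongest promoter peaks belonged to Bcl2l13, an apoptosis and mitophagy protein, Vps4b, an ESCRT ATPase, Eif1, Smim10l1, Srsf5 and Srsf6, splicing factors, Clk1, a kinase of splicing factors, and Efcab2. Eif1 (chromosome 11, 100319949 to 100322099) had folds of 15.2 and 14.0 for H3K27ac and 8.33 for H3K4me3. Srsf6 (chromosome 2, 162931508 to 162937121) had 12.5 and 14.0 against 8.31. Bcl2l13 (chromosome 6, 120836206 to 120892842) had 12.3, 10.9 and 11.1, the highest H3K4me3 value of these 8 genes. Folds of the 2 marks come from separate lists, so they describe each peak and not a ratio of marks.

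The H3K27ac-only genes with the strongest peaks were Wars2, a mitochondrial tryptophan-tRNA synthetase (chromosome 3, 99140107 to 99221230; folds of 8.87 and 11.7), and B9d1, a protein of the ciliary transition zone (chromosome 11, 61505144 to 61512931; 10.1 and 7.64). Fkbp2 with LOC114841036, and Tmem25 with Ttc36, are overlapping or adjoining pairs that shared a peak, and 1700092M07Rik and 2610044O15Rik8 completed the 8. All but 1700092M07Rik stayed in this class with a window of 2.5 kb and with either gene end taken as the start. At the H3K4me3-only end stood Heatr1 and Urb1, a further factor of ribosome assembly, with folds of 11.1 and 11.3 (percentiles 98.9 and 98.8), followed by Mecr, an enzyme of mitochondrial fatty acid synthesis, Zc3h3, Wdr18, Tctn1, Stoml1 and Gle1. These H3K4me3 peaks had percentiles of 97.6 to 98.9, although neither H3K27ac library had a peak within 1 kb. With 2.5 kb Zc3h3 gained a peak of 1 H3K27ac list, and the other 7 stayed H3K4me3 only.

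The lists of stomach genes described next were chosen with earlier results of these data known, and they are given as counts beside the genome-wide shares above. Of 20 parietal cell and acid secretion genes, 9 carried both marks, 1 H3K27ac only, 1 H3K4me3 only, 4 a peak in 1 H3K27ac list and 5 no peak. Car2, a carbonic anhydrase, had H3K27ac folds of 7.0 and 5.0 and an H3K4me3 fold of 3.32. Hrh2, through which histamine stimulates acid secretion, had 5.88, 4.83 and 4.97, and Ezr, the linker of actin to the secretory membrane, had 4.35, 5.04 and 3.81 with 5 distal regions. Atp4b, the beta subunit of the proton pump, was acetylated in both libraries (4.12 and 3.90) with no H3K4me3 peak, and Esrrb, an orphan nuclear receptor, carried H3K4me3 alone (4.17). Atp4a, the catalytic subunit of the same pump, had no peak of either mark within 1 kb, nor did Kcne2, Slc26a7, Aqp4 and Cckbr, of which Cckbr had 1 distal H3K27ac-only region.

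Of 14 chief cell genes matched, 4 carried both marks, among them Rab3d, a GTPase of secretory granules (9.94, 9.51 and 6.92; percentiles of 98.3, 98.4 and 90.5), and Xbp1, a factor of the secretory programme (6.18, 6.18 and 4.97). Pnliprp2, a lipase, carried H3K27ac only (5.48 and 6.39). Pgc, which encodes a pepsinogen, and Cblif, which encodes intrinsic factor, were called in H3K27ac library 1 alone (3.31 and 3.93), and Pga5, Lipf and Bhlha15 had no peak. Their percentiles in that library were 6.30 and 11.02, far below those of Rab3d and Xbp1.

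Of 14 surface pit cell genes 4 carried H3K27ac only, 4 both marks, 3 a peak in 1 list and 3 none. The H3K27ac-only genes were Gkn2 (4.59 and 3.35), Tff1, a trefoil peptide (4.44 and 3.49), Psca, a surface antigen (3.86 and 3.68), and Mucl3 (3.92 and 3.16). Gkn1 and Muc1 had a peak in library 2 alone. The both-marks members were Foxq1, a forkhead factor (4.83, 5.12 and 3.59), Tmprss2, Sult1c2 and Capn9. With a 2.5 kb window Mucl3 joined the both-marks genes, and with either gene end taken as the start Tmprss2 lost its peak. With H3K27ac library 1 alone H3K27ac-only genes numbered 4 among pit, 5 among parietal and 4 among chief cell genes, and with library 2 alone 7, 1 and 2, so the lists had no fixed order in this class. Of 12 mucous neck and metaplasia genes, Sox9 and Wfdc2 carried both marks, Agr2 carried H3K27ac only (4.21 and 5.32), 3 were in 1 list, and 6 had no peak, Muc6 and Tff2 among them. Muc6 and Spink4 had no promoter peak but 1 and 3 distal regions.

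Isthmus, stem and proliferation genes were spread over all classes, with 4 of 14 in both marks, 1 in H3K27ac only, 3 in H3K4me3 only, 3 in 1 list and 3 with no peak. The H3K4me3-only genes were Top2a, a topoisomerase (6.95), Ccnb1, cyclin B1 (6.13), and Aurkb, a mitotic kinase (5.60), while Birc5, a partner of Aurkb in mitosis, carried both marks (5.83, 5.45 and 6.77). Mki67, Pcna and Stmn1 had H3K4me3 and a peak in H3K27ac library 1 alone. Lrig1, a growth restraint gene of stem cells, and Runx1 had both marks, Tnfrsf19 had H3K27ac only (6.11 and 4.45), and Lgr5 had no peak. With H3K27ac library 1 alone 7 of the 14 carried both marks, and with library 2 alone 6 carried H3K4me3 only.

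Of 24 gastric transcription factors 13 carried both marks, 2 H3K27ac only, 3 a peak in 1 list and 6 no peak, and 12 had at least 1 distal region, against 10.9% of all genes. Klf5, a factor of proliferating epithelium, had folds of 5.29, 5.88 and 5.78. Hnf4a, a nuclear receptor of foregut and gut epithelium, had 6.99, 5.63 and 7.11, and Grhl2, a regulator of epithelial junctions, had 6.92, 6.84 and 4.26 with 5 distal regions. Gata4 had 3.04, 3.35 and 3.20 with 4 distal regions, and Foxa2 had 3.51, 3.13 and 3.02 with 3. Foxa1, a pioneer factor, was acetylated in library 1 alone at its promoter but had 3 distal H3K27ac-only regions. Hnf4g (5.48 and 4.45) and Klf4 (3.67 and 3.16) carried H3K27ac only, Klf4 moving to both marks at 2.5 kb, and Sox2, a factor of the foregut, had both marks and 3 distal both-marks regions. Pdx1, Barx1, Onecut2 and Rfx6 had no promoter peak.

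Epithelial junction and keratin genes fell in only 2 states, with 11 of 15 in both marks and 4 without a peak (Cldn3, Cldn4, Cldn7 and Krt20). Epcam, an epithelial adhesion molecule, had 9.05, 7.34 and 6.58, Ocln, a tight junction protein, 5.52, 6.02 and 5.60, and Cldn18, the claudin of the stomach, 4.88, 4.82 and 4.08. Krt8 had 3.02, 3.51 and 4.45 on the promoter printed above, and Krt18, its partner keratin, 5.10, 3.01 and 5.97.

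Of 30 Notch pathway genes 16 carried both marks, 1 H3K4me3 only, 3 a peak in 1 list and 10 no peak. Among ligands Jag1 had some of the strongest acetylation in the list (9.55 and 11.3; percentiles of 99.4 and 99.6) with H3K4me3 of 4.47 at percentile 53.6, and Dll1, Dll3 and Jag2 had no peak. Among receptors Notch2 (7.74, 8.71 and 6.04) and Notch1 (3.91, 3.98 and 4.44) carried both marks and Notch3 none. Rbpj, the DNA-binding partner of Notch, had 4.79, 5.89 and 5.58. Among targets Hes1 had 2.97, 2.77 and 3.70, Hey1 5.09, 4.58 and 5.71, Hey2 H3K4me3 alone (6.15), and Hes5 and Heyl no peak.

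Immediate early genes, the fast transcription factors of stimulation and stress, carried both marks in 15 of 20 cases, and 14 of 20 had at least 1 distal region. Jun had 5.00, 4.77 and 3.13 with percentiles of 88.2 and 85.9 for H3K27ac and 7.88 for H3K4me3, and Klf6 had 5.83, 6.33 and 3.37 with 92.0, 96.5 and 14.0. Both were thus near the top of the H3K27ac lists and near the bottom of the H3K4me3 list. Fosb carried H3K27ac only (6.37 and 4.92), and Nr4a1 H3K4me3 only (4.71) beside 3 distal regions, moving to both marks with peaks at either end of the gene counted. Ier3 and Fosl2 had 3 distal H3K27ac-only regions each. Of 20 endoplasmic reticulum stress and secretion genes 18 carried both marks, such as Atf4 (10.1, 6.81 and 5.44) and Hspa5, a chaperone (7.61, 7.58 and 5.28), and Ddit3 carried H3K27ac only (3.16 and 3.90), moving to both marks at 2.5 kb.

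Genes used by all cells carried both marks in 20 of 26 housekeeping, 26 of 28 ribosomal protein and 23 of 25 mitochondrial energy genes. The housekeeping exceptions with H3K4me3 alone were Tbp, Tubb5 and Pgk1, with folds of 6.85, 3.84 and 4.08, and Rps9 was that of the ribosomal list (5.26). At 2.5 kb Tbp moved to both marks and Rps9 gained a peak of 1 H3K27ac list. Of 25 SWI/SNF chromatin remodelling subunits 17 carried both marks, Arid1a among them (chromosome 4; 4.19, 5.06 and 4.00; H3K27ac only with either gene end as the start), and Smarca2, 1 of the 2 ATPases of the complex, carried H3K4me3 only (4.01), gaining a peak of 1 H3K27ac list at 2.5 kb.

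Lists of other tissues served as a check of the labelled gland epithelium. No gene of the blood (20), fibroblast and muscle (16), endothelial (12), squamous (13), neuronal (16) and Polycomb-silenced developmental (40) lists carried both marks. Their marked promoters were mostly H3K4me3 only: Cd4 (5.61), Vim (4.39), Egfl7 (4.14), Sox17 (4.08) and Lhx2 (4.67), each without H3K27ac, while Acta2, Sprr1a and Snap25 had a peak in 1 H3K27ac list. H3K4me3-only genes made up 5% of the blood, 6.25% of the fibroblast and muscle, 16.7% of the endothelial and 2.5% of the developmental list. The share was 5.43% over all genes, and the squamous and neuronal lists held no such gene. Ptprc, Cd3e, Cd68, Col1a1, Pdgfra, Des, Myh11, Pecam1, Cdh5, Kdr, Krt5, Krt14 and Trp63, which are among the defining markers of these cells, had no promoter peak. A missing promoter peak does not set other tissues apart by itself: 46.8% of all genes had none, nor had the gland genes Atp4a, Muc6 and Lipf. Distal regions were found at 3 endothelial genes (Pecam1 with 2, Vwf and Sox17 with 1 each), 3 neuronal genes, Acta2 and 1 developmental gene. None were found at blood or squamous genes. Of 14 endocrine genes Isl1 alone was marked (both marks), and Chga, Sst, Gast, Ghrl and Hdc had no peak. Of 15 intestinal genes Lgals4 carried both marks, as did Pmel, a pigment cell gene that entered the list through an older symbol, and Cdx1, Cdx2 and Muc2 had no promoter peak. Of 17 germ cell and olfactory genes Gdf9 and Tex14 carried both marks and Dazl H3K27ac only (9.58 and 7.06), Gdf9 with no start given so that a peak at either end of the gene counted. With either end used for every named gene, Esrrb, Runx1, Rbpj, Egfl7, Smim10l1 and 1700001O22Rik had no peak, and Tnfrsf19, Lgals4 and Rps9 had a peak in 1 list. Foxa2 then carried H3K27ac only, as did Muc1, Sprr1a and Nr2f2, which gained acetylation by this change.

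**Figure D3:**
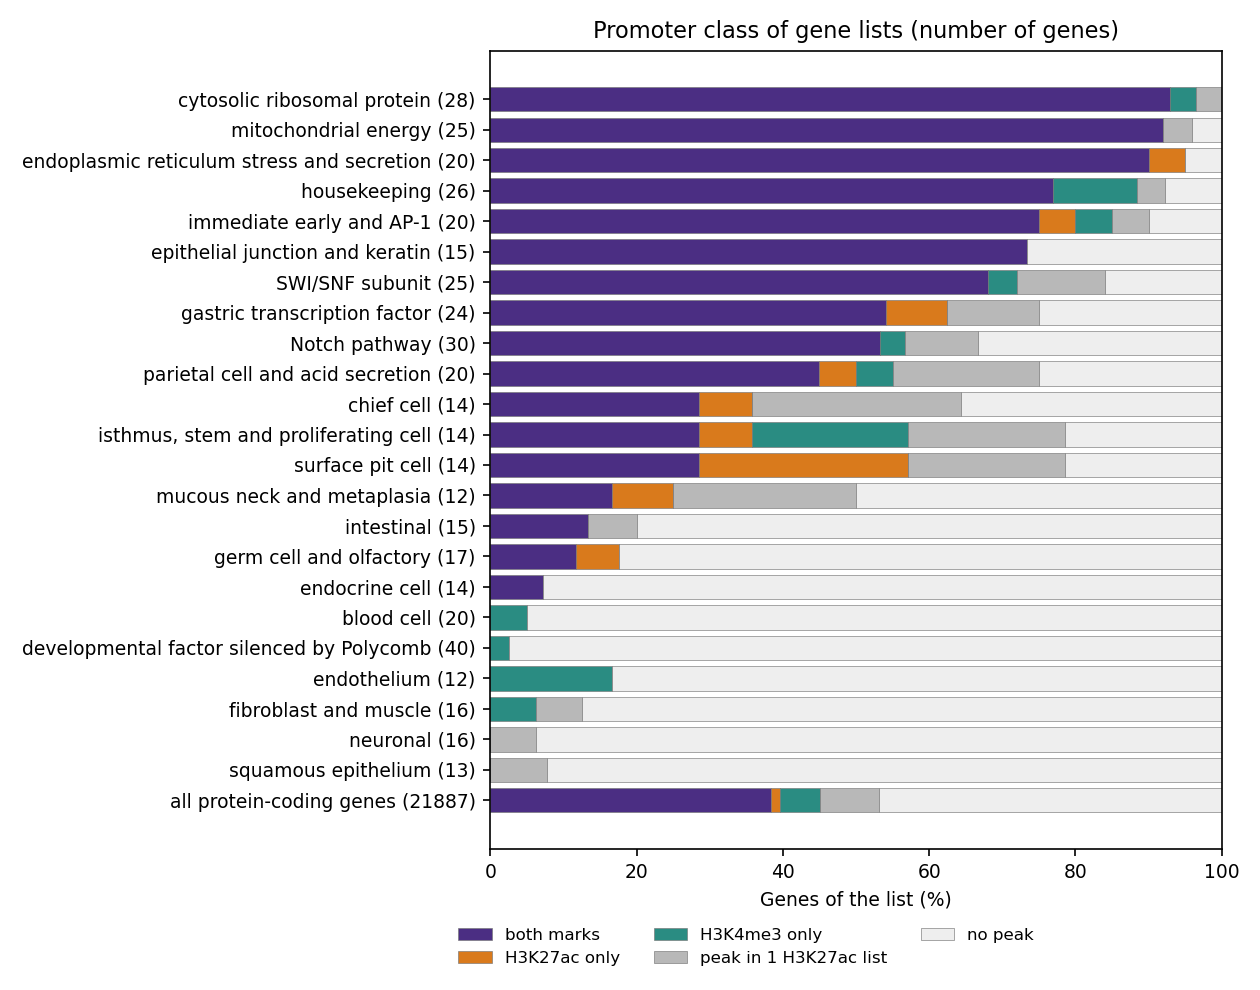
Percent of the genes of each list (horizontal axis) by promoter class within 1 kb of the start, with the number of genes in brackets and all protein-coding genes in the bottom bar. Ribosomal and mitochondrial lists are nearly all both marks, 4 of 14 pit cell genes are H3K27ac only, and blood, endothelial and developmental lists hold no both-marks gene.

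Distal regions in both H3K27ac lists were assigned to the nearest start up to 100 kb away, which placed 3352 regions (2120 H3K27ac only, 1232 both marks) at 2379 genes (10.9%). Of these genes 1725 had 1 region, 456 had 2 and 198 had 3 or more. Genes with an H3K27ac-only promoter had a distal region in 20.9% of cases, both-marks genes in 14.5%, H3K4me3-only genes in 11.3% and genes without a promoter peak in 7.10%. Nr2f2, a nuclear receptor (chromosome 7, 70351946 to 70366746), had 7 distal regions, all H3K27ac only, and no promoter peak within 1 kb, although a peak of 1 H3K27ac list came within 2.5 kb. Rreb1, a zinc finger factor of Ras signalling, had 7 (5 H3K27ac only), and Casz1, a zinc finger factor, Chd2, a chromatin remodeller (promoter H3K27ac only, both marks at 2.5 kb), Eapp and 1700001O22Rik had 6 each. The highest numbers were those of Gm40363 (11, all both marks) and Sfi1 (9, of which 8 both marks), and 3 and 2 of these regions were called in all 6 scored libraries of other genotypes of either label. Over all 3352 assigned regions that share was 5.88%, but most of these were H3K27ac only, which is not a like background. The Arid1a-floxed H3K4me3 library, 1 of the scored libraries, called 0.418% of distal H3K27ac-only regions and 34.4% of distal both-marks regions.

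Where a start and its strand were given, the summits of both marks lay downstream of it. At both-marks starts (8030 starts) the H3K27ac summits had median positions of 174 and 182 bp downstream in the 2 libraries, with 73.7% and 74.1% of summits downstream, and the H3K4me3 summit 227 bp downstream with 81.1%. At H3K4me3-only starts (1153) the median was 191 bp with 80.1% downstream, and at H3K27ac-only starts (279) it was 145 and 121 bp with 62.0% and 61.3%. The H3K27ac and H3K4me3 summits of the same promoter lay a median of 98 and 99 bp apart, against 61 bp between the 2 H3K27ac libraries. At 50.7% and 50.4% of the shared promoters the marks peaked within 100 bp of each other, while at 13.6% and 13.7% they were more than 500 bp apart.

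The rule did not use sequence, and the promoters of the classes differed in it. In the 300 bases from 250 before to 50 after each start, both-marks promoters held a median of 24 CG dinucleotides, H3K4me3-only promoters 20, H3K27ac-only promoters 9 and promoters without a peak 4, against 13 over all 21263 starts. At least 15 were found in 81.4%, 69.4%, 35.8% and 14.4% of them. The H3K27ac-only class was thus a mixture, with 31.9% of its promoters holding 5 or fewer, as Gkn2 and Agr2 nearly did with 6 and 7, and 35.8% holding 15 or more. Median GC content was 63.0%, 61.3% and 56.7% for both marks, H3K4me3 only and H3K27ac only. Genes of H3K4me3-only and both-marks promoters resembled each other in these measures more than either resembled the H3K27ac-only genes, and no test was made, since starts are not replicates.

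**Figure D4:**
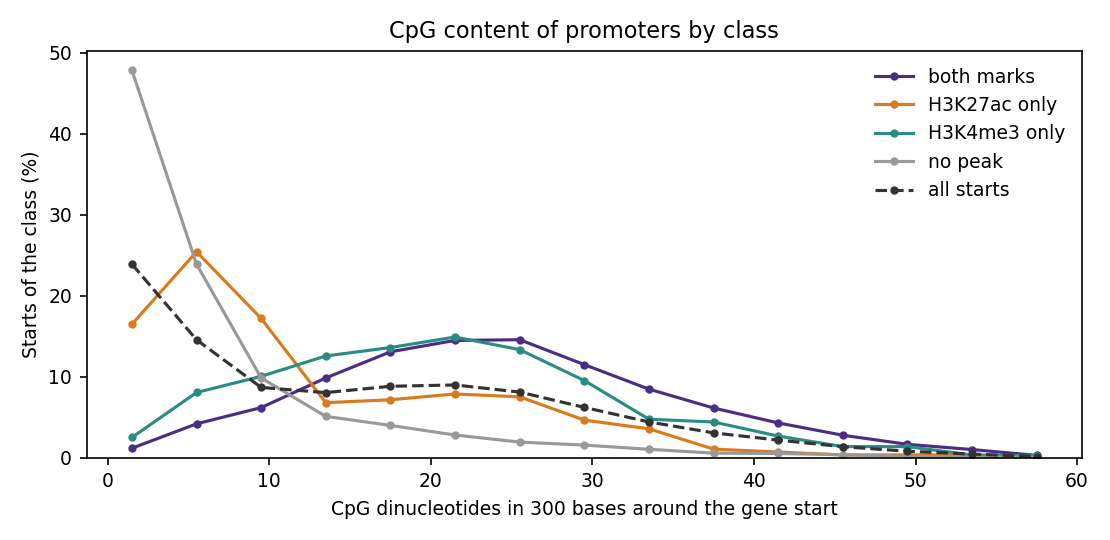
Percent of the starts of each class (vertical axis) by number of CG dinucleotides in the 300 bases around the start (horizontal axis, bins of 4), with starts without a peak and all starts for comparison. Both-marks and H3K4me3-only promoters peak near 20 to 26, and H3K27ac-only promoters peak at 4 to 7 with a shoulder at higher values.

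Short motifs were searched on both strands of the same 300 bases, and a match is a description and not a binding site. GGGCGG, the core of the GC box, was found in 71.1% of both-marks, 66.3% of H3K4me3-only and 43.4% of H3K27ac-only promoters, against 46.2% of all starts, and it contains the dinucleotide counted above. The core of ETS sites, CGGAAG, was found in 36.6%, 24.2% and 21.9% (21.1% of all), so it was more frequent in the both-marks class than in either of the others. It too contains the CG dinucleotide, and its frequency was not compared at equal CG content. TATAAA was found in 5.59%, 7.03% and 8.60% (12.6% of all), AGATAA, which factors such as Gata4 bind, in 4.69%, 6.33% and 9.68% (9.65%), and TGACTCA, an AP-1 site, in 3.0%, 3.38% and 7.17% (4.66%). CCAAT was found in 36.3%, 42.5% and 36.2% (38.2%). Gkn2 held TATAAA between 35 and 15 bases before its start, and none of the other 5 printed promoters did.

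The libraries of other genotypes were not used by the rule, and in them each class was counted by overlap with the deposited H3K27ac peaks. Both-marks regions overlapped a peak in 98.9% and 96.3% of cases in the NICD libraries, 41.8% and 61.5% in those with 1 floxed allele, and 90.8% and 87.7% in those with 2. H3K27ac-only regions did so in 94.4% and 77.5%, in 13.2% and 19.3%, and in 51.0% and 43.9%. H3K4me3-only peaks did so in 58.6% and 32.8%, in 1.37% and 3.62%, and in 23.7% and 22.0%. The shares moved with the length of the lists, which ran from 5165 to 41405 peaks, but within every library the order of the classes was the same.

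Over the 6 libraries the mean share was 79.5% for both marks, 49.9% for H3K27ac only and 23.7% for H3K4me3 only. The gap between both marks and H3K27ac only was 29.6 ± 15.6 percentage points (SD, n = 6; range 4.56 to 43.8). It was positive in 6 of 6 libraries, with p = 0.03125 by a two-sided exact sign-flip permutation test, the smallest value 6 libraries allow. The test, like that within deciles below, took the 6 libraries as independent, although they came in pairs of 1 genotype that may share animals. Any single library left out raised the smallest possible p to 0.0625. Since the rule chose H3K4me3-only peaks for having no H3K27ac peak in wild type, their gaps to the other classes are given as a description, with no test: 55.8 ± 12.4 below both marks and 26.2 ± 12.4 below H3K27ac only (SD, n = 6), the latter 9.71 with the 4 scored lists shortened to 5165 peaks. Strength in wild type differed between the classes, and within deciles of equal wild-type H3K27ac strength the gap between both marks and H3K27ac only was smaller, at 14.6 ± 9.06 percentage points over the 6 libraries (SD; range 2.03 to 24.8; exact permutation p = 0.03125). In each NICD library the smallest gap of any decile was below 0 (−0.48 and −1.26). This comparison within deciles was added after the data were seen.

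In the libraries with 2 floxed alleles, 72.6% and 68.2% of the H3K27ac-only regions near a start were called, against 40.6% and 32.2% of the distal ones. Both-marks regions went the same way there, with 93.9% and 90.7% near a start against 73.6% and 71.0% distal. In the NICD libraries the shares of H3K27ac-only regions were 97.5% and 86.6% near a start and 92.9% and 73.1% distal. In those with 1 floxed allele they were 14.3% and 29.4% near a start and 12.6% and 14.4% distal. The lists with 2 floxed alleles hold positions alone. Their widest peaks were 1774 and 1759 bp, against 3789 and 3858 bp in the wild-type H3K27ac lists. List and genotype therefore cannot be told apart for them. In the H3K4me3 NICD library, a list of 39420 peaks, H3K4me3 was called at 98.97% of both-marks regions, 90.02% of H3K4me3-only peaks and 66.2% of H3K27ac-only regions. In that library 94.6% of the 277 H3K27ac-only genes had an H3K4me3 promoter peak, beside 99.98% of both-marks genes, 99.7% of H3K4me3-only genes and 26.4% of genes without a wild-type peak. The Arid1a-floxed H3K4me3 library, with 5175 peaks, called 40.1%, 8.04% and 1.02%. These are single libraries, so no test was possible, and list length and genotype cannot be told apart in them.

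**Figure D5:**
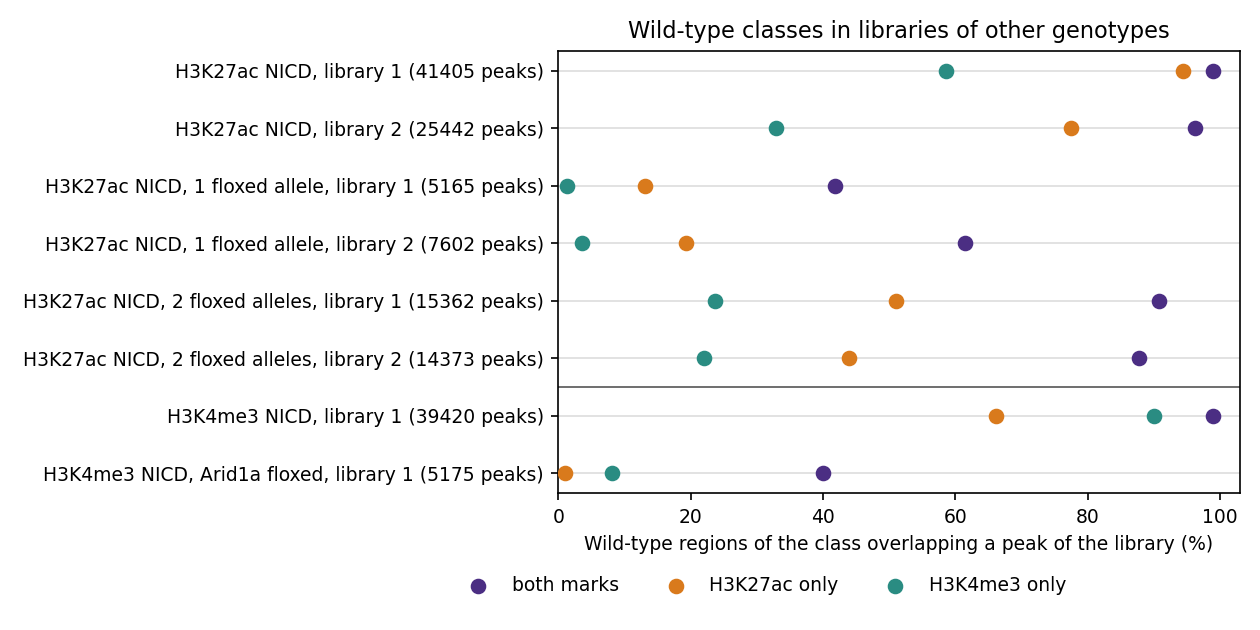
Percent of the wild-type regions of each class that overlap a peak (horizontal axis) in each library of the other genotypes, with list lengths in brackets; the 6 H3K27ac libraries stand above the line and the 2 H3K4me3 libraries below it. In all 6 H3K27ac libraries both-marks regions lie highest and H3K4me3-only peaks lowest, with mean shares of 79.5%, 49.9% and 23.7% for the 3 classes.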

How the data were processed

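Chromatin immunoprecipitation with sequencing was deposited as 1 peak list per library. The submitters' processing notes name Bowtie2, MACS2 and the GRCm38 (mm10) build. Per the file headers, MACS 2.0.10.20131216 was run without a control, at a q threshold of 0.05, an effective genome size of 2.7 Gb and a local background of 10 kb, with duplicates removed. The authors' deposited values are the pileup signal at the summit, the −log10 of the p-value and q-value, and the fold enrichment over background, and they rank peaks within a list only. The lists of both libraries with 2 floxed alleles hold positions alone.

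Overlap of 1 bp counted as shared. Distance ran from the region's edge to starts in the RefSeq promoter table (GRCm38.p6), which gave starts for 17492 of 21887 protein-coding genes, and to either end of the other 4395. The members and the 23 gene lists (453 of 455 names matched, leaving 450 genes once synonyms within a list were joined) were chosen with earlier results of these data known. Named genes were the 8 with the highest mean percentile per class, the 8 with most distal regions, and list members that left their list's most frequent class or ranked highest. The mark comparison over other libraries used an exact sign-flip permutation test with 64 sign flips. The overlap, class and distance steps were tested on simulated data. Analyses used Python 3.11.15, pandas 2.3.3 and scipy 1.17.1. Alternatives covered windows, overlap, score thresholds, list length, ranking measure and left-out libraries. Depth was 18.3 M and 17.0 M tags for H3K27ac and 20.8 M for H3K4me3; a missing peak means a signal below the authors' threshold at this depth.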

Additional observations from a re-analysis of the deposited data

How the results depend on the processing

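No paired analysis was possible because the classes were built within wild type from 2 H3K27ac libraries and 1 H3K4me3 library, and the comparison over other genotypes already paired the classes within each library. The order of the classes in the share near a gene start, in distance and in strength was the same under every alternative run, and no gap reversed. The size of the H3K27ac-only class moved most when 1 H3K27ac library was left out: it then held 7387 to 8694 regions and 462 to 532 genes, and H3K4me3-only genes numbered 1651 to 2046. Without 1 of them the share near a start was 83.8 to 84.3% for both marks, 26.97 to 28.2% for H3K27ac only and 71.5 to 72.5% for H3K4me3 only. With peaks of −log10 q of at least 5 the H3K27ac-only class held 2270 regions, and the shares near a start were 87.2%, 49.8% and 79.8% for both marks, H3K27ac only and H3K4me3 only (main values 84.9%, 32.4% and 70.0%). Joining peaks of either mark less than 1 kb apart, an alternative chosen after seeing the data, left 2319 H3K4me3-only regions.

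In the same order the shares were 87.0%, 37.2% and 76.2% with a window of 2.5 kb, 81.4%, 28.4% and 54.3% with 500 bp, and 77.2%, 31.0% and 63.0% with either gene end taken as the start. For H3K27ac only the share was 35.004% with an overlap of at least 50% of the shorter interval, 34.9% without merging and 34.3% with the lists shortened to the same length. From the midpoint the median distance was 314 bp for both marks and 532 bp for H3K4me3 only. Ranked by pileup, the median percentiles were 67.2 and 63.5 for both marks and 49.0 and 49.3 for H3K27ac only, and ranked by fold enrichment they were 38.1 and 36.8 for H3K27ac only and 29.6 for H3K4me3 only. In the other genotypes the gaps with 1 library left out ran from 26.8 to 34.6 (both marks minus H3K27ac only), 53.5 to 58.9 (both marks minus H3K4me3 only) and 22.5 to 29.0 percentage points (H3K27ac only minus H3K4me3 only). With the scored lists shortened to 5165 peaks they were 34.2, 43.9 and 9.71. These designs have 5 and 4 libraries, so their smallest exact permutation p values, 0.0625 and 0.125, cannot pass the threshold. Absence of a peak is limited by depth and by calling without a control.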
